A study of Caenorhabditis elegans with 2 samples.

Results

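The genes described here are 38 pan-neuronal and synaptic vesicle genes of Caenorhabditis elegans, out of 19973 that code for protein on the 6 nuclear chromosomes. They were listed by name, for their function in neurons. For each gene, the regions considered were those with a summit between 1000 bp upstream and 500 bp downstream of an annotated 5′ end, a stretch called the promoter window below. The binding of MEC-3 was mapped by chromatin immunoprecipitation and sequencing (ChIP-seq) with an antibody to GFP, in whole hermaphrodite late embryos collected 4 h after synchronization by bleaching. All animals were of strain OP55, which carries the mutation unc-119(ed3) on chromosome III and the transgene wgIs55, and which makes MEC-3 with GFP and FLAG at its C terminus. There was 1 group with 2 biological replicates, so no conditions could be compared. The strain is a single transgenic line, and no sample without the tagged protein was used here.

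MEC-3, a LIM homeodomain protein, sets the fate of the touch receptor neurons, which are few among the cells of the animal. Pan-neuronal genes, in contrast, are expressed in nearly every neuron and encode what all neurons share. Synaptic vesicle precursors are carried along the axon by kinesins. A synaptic vesicle is loaded, tethered at the active zone, primed, fused with the membrane by SNARE proteins when calcium enters, and retrieved by endocytosis. Neuropeptides leave through a related route, the dense core vesicle. In whole embryos, sites used in few cells are diluted by the chromatin of all the others, and no RNA was measured, so neither the cell type nor the expression of these genes could be checked.

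The values are regions listed by the authors, each with a signal of unstated scale. A pooled list of 27953 candidate regions was made from both replicates together, and separate lists held 30000 regions for replicate 1 and 22464 for replicate 2. These candidate lists hold background as well as peaks, and 1147 pooled regions (4.10%) had a q-value at or below 0.05. The final list held 457 peaks, which were the pooled regions of highest signal, down to 77.4. Signals were ranked within a list only, and a percentile below is the share of protein-coding genes with a region in that list whose highest region was lower. Where 3 signals are given for a gene, they are those of the highest region in its window in the pooled, replicate 1 and replicate 2 lists, which need not be at 1 site. The depth is unknown. The members are described by counts and medians beside the same quantities over all genes, without a test.

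More of the neuronal genes than of all genes had a candidate region in the promoter window. Among genes with a region, the share with a final peak in the window was near that of all genes, but rests on 1 neuronal gene. A pooled region was present at 25 of 38 neuronal genes (65.8%), against 8225 of 19973 protein-coding genes (41.2%). In the replicate 1 list the count was 24 (63.2%), against 42.6% of all genes, and in the replicate 2 list 28 (73.7%), against 35.7%. Only cpx-1, which encodes complexin, a protein that clamps and promotes vesicle fusion, had a final peak in its window. That is 1 of the 25 genes with a region (4.00%), against 331 of 8225 genes (4.02%). With a q-value limit of 0.05 the counts were 2 of 25 (8.0%) for the neuronal genes and 681 of 8225 (8.28%) for all genes. In the top 10% of genes by signal there were 2 of 25 neuronal genes (8.0%), against 823 of 8225 genes (10.0%). Both counts of 2 are cpx-1 and unc-31.

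The neuronal genes had longer promoter windows than most genes, so the counts are also given by window length and by number of 5′ ends. Of the 38 genes, 26 (68.4%) had more than 1 annotated 5′ end, against 26.3% of all genes. Windows of 3000 bp or more belonged to 16 neuronal genes (42.1%), against 9.47% of all genes. Among genes with such long windows, 11 of 16 neuronal genes (68.8%) and 1300 of 1891 of all genes (68.7%) had a pooled region. Among genes with shorter windows the counts were 14 of 22 (63.6%) and 6925 of 18082 (38.3%). Among genes with 1 annotated 5′ end the counts were 8 of 12 neuronal genes (66.7%) and 35.9% of all genes, and among those with more, 17 of 26 (65.4%) and 55.9%. With the most upstream 5′ end alone, 23 neuronal genes had a region, against 37.5% of all genes. Per 10 kb of window the neuronal genes held 4.15 pooled regions, against 3.20 over all genes. That density was 3.30 against 3.33 in the replicate 1 list and 4.15 against 2.62 in the replicate 2 list, so per length the excess was in replicate 2 and not in replicate 1. The part of window length in the higher count was not tested.

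**Figure D1:**
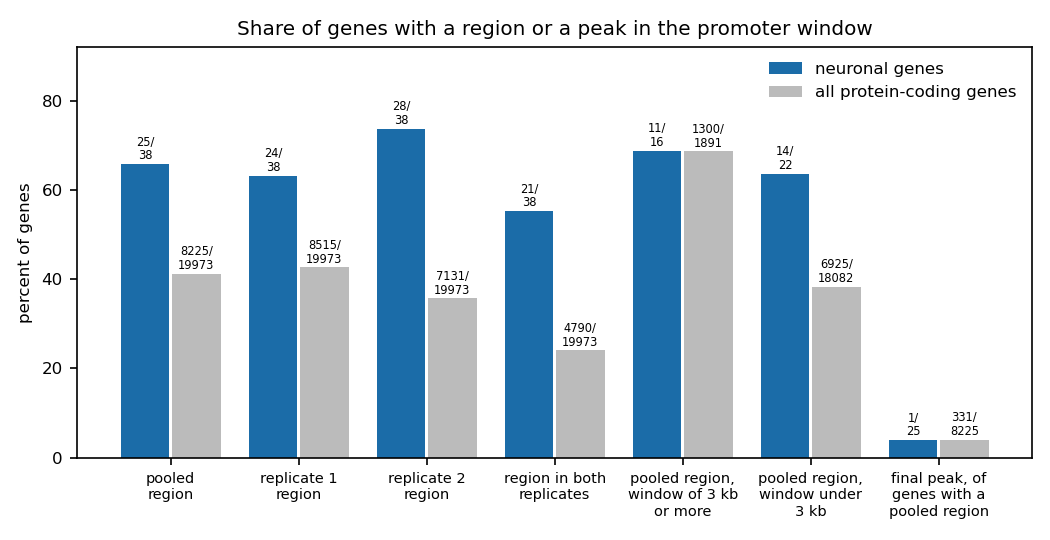
Percent of genes with a candidate region or a final peak in the promoter window, for the 38 neuronal genes (blue) and for all protein-coding genes (grey). The numbers above the bars are genes with a region over genes considered. The bars are level for windows of 3 kb or more (68.8% and 68.7%) and for final peaks among genes with a pooled region (4.00% and 4.02%). In every other pair the neuronal bar is higher, as for windows under 3 kb (63.6% and 38.3%).

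Where a region was present, the pooled signal of the neuronal genes was somewhat above the middle of all genes. Their highest pooled regions had a median signal of 38.8 and ranged from 25 at unc-26 to 78.4 at cpx-1, against a median of 32.5 over all 8225 genes with a region. The median percentile was 67.6, and 16 of 25 genes (64%) were above the median of all genes, against 50% by construction. It was 66.9 over the 24 genes with a replicate 1 region and 44.6 over the 28 with a replicate 2 region, so the upward position was not seen in replicate 2. Above the median of all genes were 16 of 24 genes in replicate 1 and 12 of 28 in replicate 2. Among as many top regions of a replicate as there are final peaks were 0 of 24 neuronal genes in replicate 1 (3.15% of all genes) and 2 of 28 in replicate 2 (5.51%), again cpx-1 and unc-31. The median −log10 q-value of the 25 pooled regions was 0.282, against 0.149 over all genes, so most of these regions were weak on the authors' own scale.

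**Figure D2:**
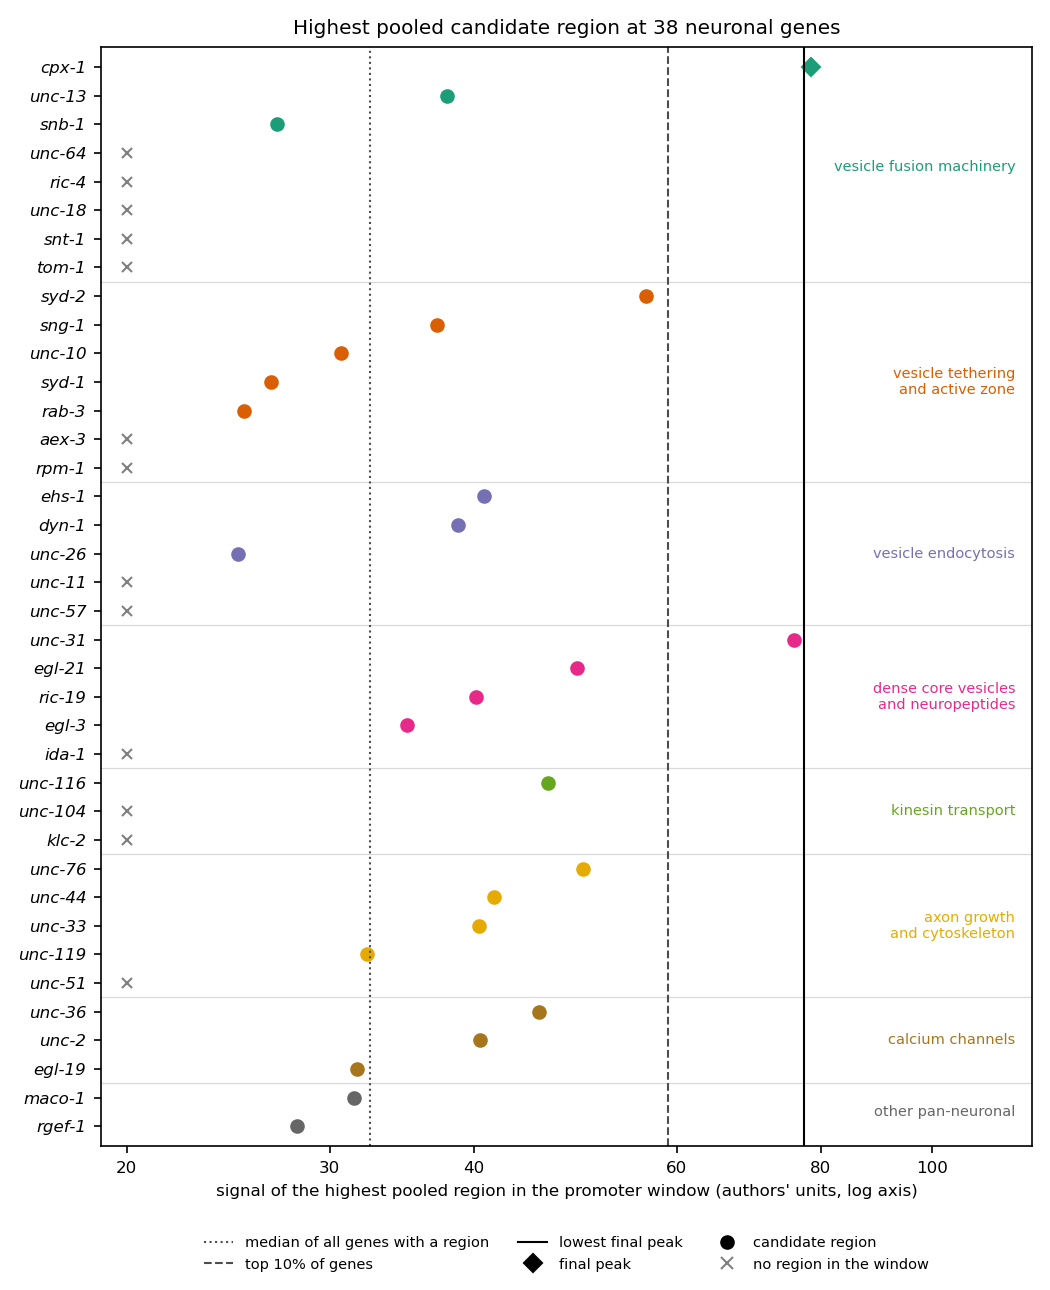
Signal of the highest pooled region in the promoter window of each of the 38 genes, on a log axis and grouped by function. Diamonds are final peaks, circles other candidate regions and crosses genes without a region. The lines mark the median of all genes with a region (32.5), the top 10% of genes (59.0) and the lowest final peak (77.4), which cpx-1 alone reaches.

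The vesicle fusion machinery was the group with a final peak. Of its 8 genes, 3 had a pooled region (37.5%, against 41.2% of all genes) and 5 a replicate 2 region. The cpx-1 region had a signal of 78.4 in the pooled list (rank 428), 30.6 in replicate 1 (rank 2002) and 44.4 in replicate 2 (rank 397). These put the gene at the 96.2nd, 89.5th and 94.9th percentile, so it was high in both replicates. The peak lay at chrI:1595808-1596251 on ce11, with its summit in coding sequence of cpx-1, 186 bp downstream of the 5′ end. It was close to the edge of the final list, whose lowest signal was 77.4. At unc-13, whose product primes vesicles, the signals were 37.9 (pooled), 21.3 (replicate 1) and 15.6 (replicate 2), and at snb-1, the synaptobrevin gene, 27.0, 14.1 and 14.3. The syntaxin gene unc-64, unc-18, which encodes the syntaxin-binding Sec1/Munc18 protein, and snt-1, the calcium sensor synaptotagmin, had no region in any of the 3 lists. The SNAP-25 gene ric-4 and tom-1, which encodes tomosyn, an inhibitor of SNARE assembly, had a region in replicate 2 only, with signals of 14.4 and 14.6 near the bottom of that list. The core SNARE genes were thus at the weak end or without a region.

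Among the tethering and active zone genes, 5 of 7 had a pooled region (71.4%, against 41.2% of all genes) and none a final peak. The highest was at syd-2, which encodes the liprin-alpha scaffold of the active zone. Its signals were 56.4 in the pooled list (rank 1795), 28.1 in replicate 1 (rank 2891) and 19.3 in replicate 2 (rank 9917), with summits within 1 bp of each other. This was the highest value below the top 10% of genes, and it was far stronger in rank in replicate 1. At unc-10, the RIM gene, the pooled signal was 30.7, with 31.6 in replicate 1 and 17.5 in replicate 2. Those replicate summits were 237 and 162 bp from the pooled one. At sng-1, the synaptogyrin gene, the signals were 37.2, 25.8 and 16.9, the last at a site 524 bp from the pooled summit. In replicate 1 unc-10 and sng-1 were at the 90.7th and 81.4th percentile and in replicate 2 at the 33.7th and 28.7th. The GTPase gene rab-3 had 25.3 in the pooled list and 19.1 in replicate 2, and no replicate 1 region. The assembly factor gene syd-1 had 3 weak regions, the highest with a signal of 26.7, or 40.8 with the window from 2000 bp upstream. No list had a region in the windows of aex-3, which encodes the exchange factor for RAB-3, or of rpm-1, a ubiquitin ligase that limits synapse growth.

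Of the 5 endocytosis genes, 3 had a pooled region, against 41.2% of all genes. At ehs-1, the Eps15 gene, the signals were 40.8 in the pooled list, 22.5 in replicate 1 and 32.4 in replicate 2, and its window held 3 regions. The replicate 1 summit was 633 bp from the pooled one. At dyn-1, which encodes the dynamin that cuts vesicles from the membrane, they were 38.8, 21.7 and 18.9, with the replicate 1 summit 128 bp from the pooled one. The synaptojanin gene unc-26 had the lowest highest region of the set, with 25 in the pooled list, 14.4 in replicate 2 and none in replicate 1. The AP180 gene unc-11 had a region in replicate 1 only (16.9), and the endophilin gene unc-57 in replicate 2 only (16.5). These genes were spread over the range, with none in the top 10%.

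The dense core vesicle group had pooled regions at 4 of 5 genes, against 41.2% of all genes. Of these genes, 2, unc-31 and egl-21, were above the 80th percentile in all 3 lists, as only cpx-1 was besides. The share of all genes above that percentile in all 3 lists was not computed. At unc-31, which encodes the CAPS protein needed for dense core vesicle release, the highest signals were 75.9 in the pooled list (rank 508), 36.1 in replicate 1 (rank 936) and 47.2 in replicate 2 (rank 318). These were at the 95.6th, 94.3rd and 95.6th percentile. The pooled signal was just below the lowest final one. The summit lay in an intron, 185 bp downstream of an internal 5′ end, so the region fell in no window when only the most upstream 5′ end was used. The 47.2 of replicate 2 belonged to a summit 133 bp from the pooled one, and within 100 bp of it that list had 19.5 (rank 9612). At egl-21, the gene of a carboxypeptidase that trims neuropeptide precursors, the signals were 49.2 in the pooled list (rank 2990), 26.3 in replicate 1 (rank 3730) and 36.3 in replicate 2 (rank 887). All 3 summits were near the 5′ end, the pooled one 7 bp upstream of it. The gene lies 16575 bp from mec-3, and the sources used here do not say how far the transgene extends on that side. At ric-19, a gene of dense core vesicle maturation, the signals were 40.2, 19.3 and 28.0, and the pooled region was also in the window of pmlr-1. The replicate 1 summit was 934 bp from the pooled one, and that list had none within 100 bp of it. At egl-3, which encodes the proprotein convertase that cuts neuropeptide precursors, they were 35.0, 21.9 and 18.7, the last 1905 bp from the pooled summit, where replicate 2 had 14.3. The gene of the vesicle membrane protein IDA-1 had a region in replicate 1 only (13.0).

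Of the kinesin genes, unc-116, the heavy chain of conventional kinesin, had a pooled signal of 46.4, with 25.5 in replicate 1 and 20.7 in replicate 2. The summit was in coding sequence, 174 bp into the gene. Its light chain gene klc-2 had a region in replicate 2 only (14.5). The gene of UNC-104, the motor that carries synaptic vesicle precursors, had no region in its window in any list.

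Among the axon growth genes, 4 of 5 had a pooled region, against 41.2% of all genes. Their windows had a median of 4263 bp, and 68.7% of all genes with windows of 3000 bp or more had one. The highest pooled region was at unc-76, which encodes the FEZ protein of axon bundling. The signals of unc-76 were 49.8 in the pooled list (rank 2858), 34.8 in replicate 1 (rank 1107) and 23.2 in replicate 2 (rank 5468). Its 6120 bp of window held 5 regions. The highest region of replicate 2 lay 6992 bp from the pooled summit, at another 5′ end, and at the pooled site it had 14.6. At unc-44, the neuronal ankyrin gene, the signals were 41.7, 21.4 and 14.7, and at unc-33, the CRMP gene, 40.4, 20.9 and 23.4. With the most upstream 5′ end alone the pooled signal of unc-44 was 25.2. The kinase gene unc-51 had no region in its window in any list. At unc-119, which is mutated in this strain and whose wild-type copy is the usual selection marker for such transgenes, the pooled signal was 32.3, with 13.5 in replicate 1, at a site 4083 bp away, and no replicate 2 summit in the window. Within 100 bp of the pooled summit there were weak regions in replicate 1 (12.5, rank 27827) and in replicate 2 (16.4, rank 15728), the replicate 2 summit falling outside the window. The gene was at the 49.4th percentile, but its pooled signal was 49.7 with the window from 2000 bp upstream or with overlap in place of the summit.

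All 3 calcium channel genes had a pooled region. Their windows had a median of 3013 bp, and 68.7% of all genes with windows of 3000 bp or more had one. The auxiliary subunit gene unc-36 had signals of 45.6 in the pooled list, 21.5 in replicate 1 and 21.3 in replicate 2, with replicate summits 12 and 3 bp from the pooled one. With the window from 500 bp upstream its pooled signal was 24.1. The presynaptic channel gene unc-2, the longest of the 38 at 52607 bp, had 40.5, 16.7 and 28.3, and 4 pooled regions in 10516 bp of window. With the most upstream 5′ end alone its pooled signal was 23.6. The muscle and neuron channel gene egl-19 had 31.7, 16.1 and 16.1, the replicate summits lying 11357 and 10068 bp from the pooled one. At the pooled site replicate 2 had 14.7 (rank 20350) and replicate 1 none. Its pooled summit was nearer to the 5′ end of C48A7.16 (332 bp) than to its own (437 bp), the only such case among the 25 genes (4.00%, against 16.1% of all genes). Of the 2 remaining genes, maco-1, the macoilin gene, had 31.5 in the pooled list and 22.5 in replicate 2, and rgef-1, a Ras exchange factor gene widely used as a neuronal marker, had 28.1, 12.2 and 16.1.

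The replicates placed the genes in partly different orders. A region was present in both replicate lists at 21 of 38 genes (55.3%), against 24.0% of all genes, and in none of the 3 lists at 7 (18.4%), against 43.5%. Those 7 are aex-3, rpm-1, snt-1, unc-104, unc-18, unc-51 and unc-64. Over the 21 genes the replicate signals had a Spearman's rho of 0.401 and, after log2, a Pearson's r of 0.456, against 0.408 and 0.549 over 4790 genes. The highest regions of both replicates were within 100 bp of each other at 8 of the 21 genes (38.1%), against 41.9% of the 4790. These correlations are across genes, which are not replicates, and per the deposited file list both lists used 1 control file. Of the 21 genes, 9 were above the median of genes in both replicates (42.9%, against 40.9% of all genes). They are cpx-1, ehs-1, egl-21, ric-19, unc-31, unc-33, unc-36, unc-76 and unc-116. Another 3, egl-19, rgef-1 and snb-1, were below it in both (14.3%, against 21.1%).

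**Figure D3:**
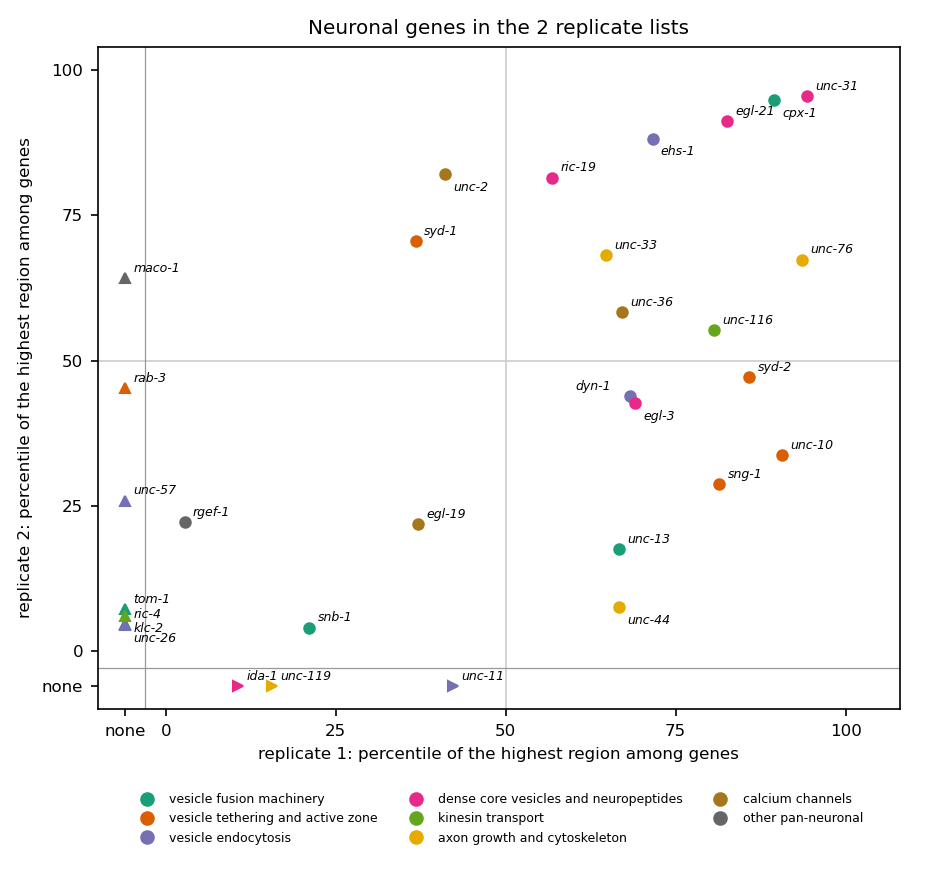
Percentile of each gene's highest region among all protein-coding genes with a region, in replicate 1 (x axis) and replicate 2 (y axis). Triangles in the margins are genes with a region in 1 replicate only, and the 7 genes without any region are not drawn. cpx-1, unc-31 and egl-21 sit in the upper right, above the 80th percentile in both replicates. The share of all genes there was not computed.

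Counting any region of a replicate, strong or weak, both replicates had a summit within 100 bp of the pooled one at 15 of 25 genes (60%), against 2644 of 8225 genes (32.1%). At unc-31, unc-33, unc-76, unc-119 and egl-3 this rests on a region that is not the highest of its replicate in the window. The share depends on signal. Among genes above the median signal it was 12 of 16 (75%), against 57.9%, and below the median 3 of 9 (33.3%), against 6.39%. Of the remaining genes, 1 (4.00%) had a nearby summit in replicate 1 only, against 30.7% of all genes, and 7 (28.0%) in replicate 2 only, against 24.9%. Counted singly, a replicate 1 summit was near at 16 genes (64%, against 62.9%) and a replicate 2 summit at 22 (88.0%, against 57%). At rab-3 and unc-10 neither replicate had a summit within 100 bp.

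The regions lay mostly upstream of the genes, on single-copy sequence. The summit was upstream of the nearest 5′ end of the gene at 19 of 25 genes (76%), against 64.5% of all genes, and at a median of -359 bp, against -175 bp. It lay outside protein-coding genes at 15 (60%, against 39.1%), in an intron at 6 (24.0%, against 21.6%), in coding sequence at 2 (8.0%, against 31.8%) and in an untranslated exon at 2 (8.0%, against 7.57%). No gene of a small structural RNA (tRNA, rRNA, snoRNA, snRNA) lay within 500 bp of any of the 25 summits, against 2.38% of all genes. Sequence that is mostly repeated elsewhere in the genome surrounded 0 of the 25 summits, against 2.08% of all genes, and the highest share of repeated 24-mers was 11.8%, at ehs-1. GC content within 100 bp of the summit had a median of 47.3%, against 41.8% over all genes. The highest was 61.7% at unc-31 and the lowest 26.4% at rab-3.

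**Figure D4:**
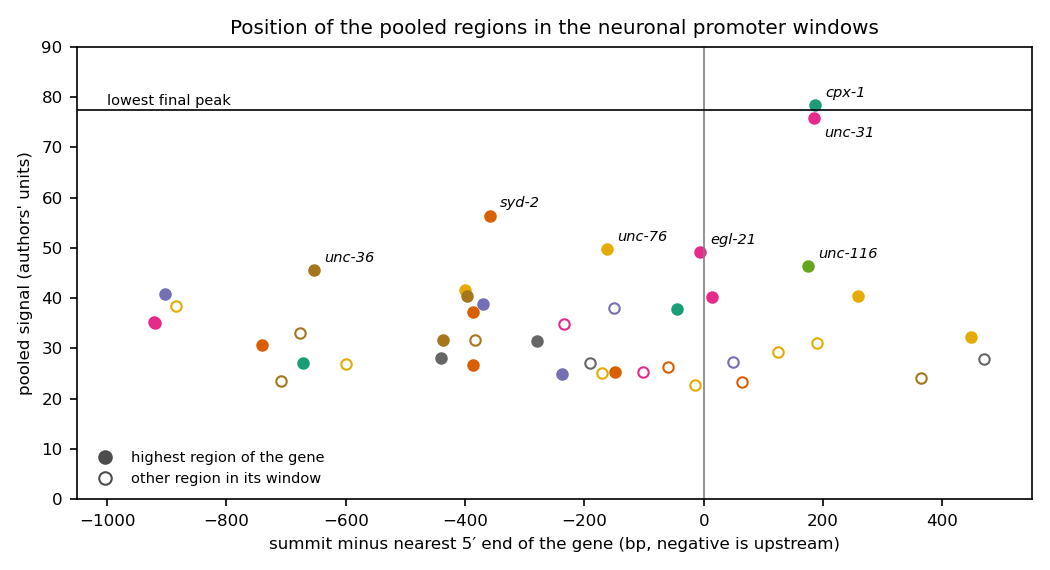
Pooled signal against the distance of the summit from the nearest 5′ end of the gene, for the 44 pooled regions in the windows of 25 genes. Filled circles are the highest region of each gene and open circles its other regions, coloured by function as in the plot of signals by gene. cpx-1 and unc-31, at 186 and 185 bp downstream of a 5′ end, have the highest signals.

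The sequences within 60 bp of the summit are shown for the 6 genes of highest pooled signal after cpx-1, to let their composition be compared. They are from the RefSeq copy of WBcel235 (ce11) and are written 5′ to 3′ on the strand of the gene. Capitals mark matches to ATCGAT, the core of sites of ONECUT-type homeodomain proteins, a family that acts in pan-neuronal gene expression, or to GAGAGA, a purine repeat. AATGCAT, the site type of UNC-86 with MEC-3, the homeodomain core TAATTA and the POU octamer ATGCAAAT were searched too, and none of them occurs in these 6 stretches.
unc-31 (chrIV:12781091-12781211, plus strand): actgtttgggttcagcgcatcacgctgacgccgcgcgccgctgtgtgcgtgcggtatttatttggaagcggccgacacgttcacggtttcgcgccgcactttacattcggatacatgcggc
syd-2 (chrX:10555538-10555658, minus strand): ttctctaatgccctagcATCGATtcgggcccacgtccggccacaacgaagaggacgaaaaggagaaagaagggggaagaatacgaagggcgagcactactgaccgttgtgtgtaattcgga
unc-76 (chrV:15071537-15071657, plus strand): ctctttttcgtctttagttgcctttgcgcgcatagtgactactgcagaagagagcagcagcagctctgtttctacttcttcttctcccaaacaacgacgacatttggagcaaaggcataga
egl-21 (chrIV:10481791-10481911, minus strand): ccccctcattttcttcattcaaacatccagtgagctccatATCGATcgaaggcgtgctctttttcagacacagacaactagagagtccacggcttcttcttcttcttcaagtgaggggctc
unc-116 (chrIII:8354940-8355060, minus strand): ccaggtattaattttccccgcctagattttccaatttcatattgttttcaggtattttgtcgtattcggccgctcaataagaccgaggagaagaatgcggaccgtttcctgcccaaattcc
unc-36 (chrIII:8201811-8201931, minus strand): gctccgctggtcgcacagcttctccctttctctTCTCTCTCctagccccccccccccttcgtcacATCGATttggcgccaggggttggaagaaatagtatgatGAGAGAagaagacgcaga

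Of these 6, the syd-2, egl-21 and unc-36 stretches hold ATCGAT, and the GC content ranges from 43.8% at unc-116 to 59.5% at unc-31. On either strand and up to 100 bp from the summit, ATCGAT occurred at 5 of the 25 genes (20%), against 7.83% of all genes with a region. The 5 are syd-2, egl-3, egl-21, unc-36 and rgef-1. GAGAGA occurred at 8 (32.0%), against 17.8%: cpx-1, syd-1, unc-26, dyn-1, egl-21, ric-19, unc-36 and rgef-1. AATGCAT occurred at unc-26 alone (4.00%, against 2.57%), TAATTA at 0 (7.0% of all genes) and ATGCAAAT at 0 (1.56%). The neuronal regions differ from the others in GC content, as given above, and its part in these shares was not tested.

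Final peaks were also found inside neuronal genes, away from their annotated 5′ ends. A final summit lay between the start and end of 4 of the 38 genes (10.5%), against 211 of 19973 genes (1.06%). The neuronal genes are longer, with a median of 7360 bp against 2027 bp over all genes. Among genes of 5000 bp or more, the counts were 2 of 26 (7.69%) and 114 of 3233 (3.53%), and among shorter genes 2 of 12 (16.7%) and 97 of 16740 (0.579%). The 4 genes are cpx-1, dyn-1, unc-104 and unc-33, and at the last 3 the peaks lay outside the promoter window. A final peak in the gene and outside its own window was thus present at 3 of 38 neuronal genes (7.89%), against 0.741% of all genes, and among genes of 5000 bp or more at 2 of 26 (7.69%), against 2.66%.

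At unc-104 the peak had a signal of 81.0 (chrII:7001349-7001792), in an intron 6584 bp downstream of the most upstream 5′ end. Replicate 1 had 39.7 there (rank 564) and replicate 2 38.5 (rank 703). Of the 13 genes with no pooled region in the window, this was the only one with a final peak in the gene. At dyn-1 the peak had a signal of 78.7 (chrX:15572069-15572512), in coding sequence 730 bp before the 3′ end of the gene. It was strong in replicate 2 (51, rank 247) and weaker in replicate 1 (26.7, rank 3507). At unc-33 there were 2 final peaks in coding sequence, with signals of 79.1 (chrIV:3523153-3523596) and 77.9 (chrIV:3524513-3524956). The stronger had 21.8 in replicate 1 (rank 7311) and 53.3 in replicate 2 (rank 214), and the weaker 37.8 (rank 753) and 42.7 (rank 453). The weaker was within 500 bp of a small RNA gene. All of these signals are in the lowest part of the final list, whose median was 91.1.

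**Figure D5:**
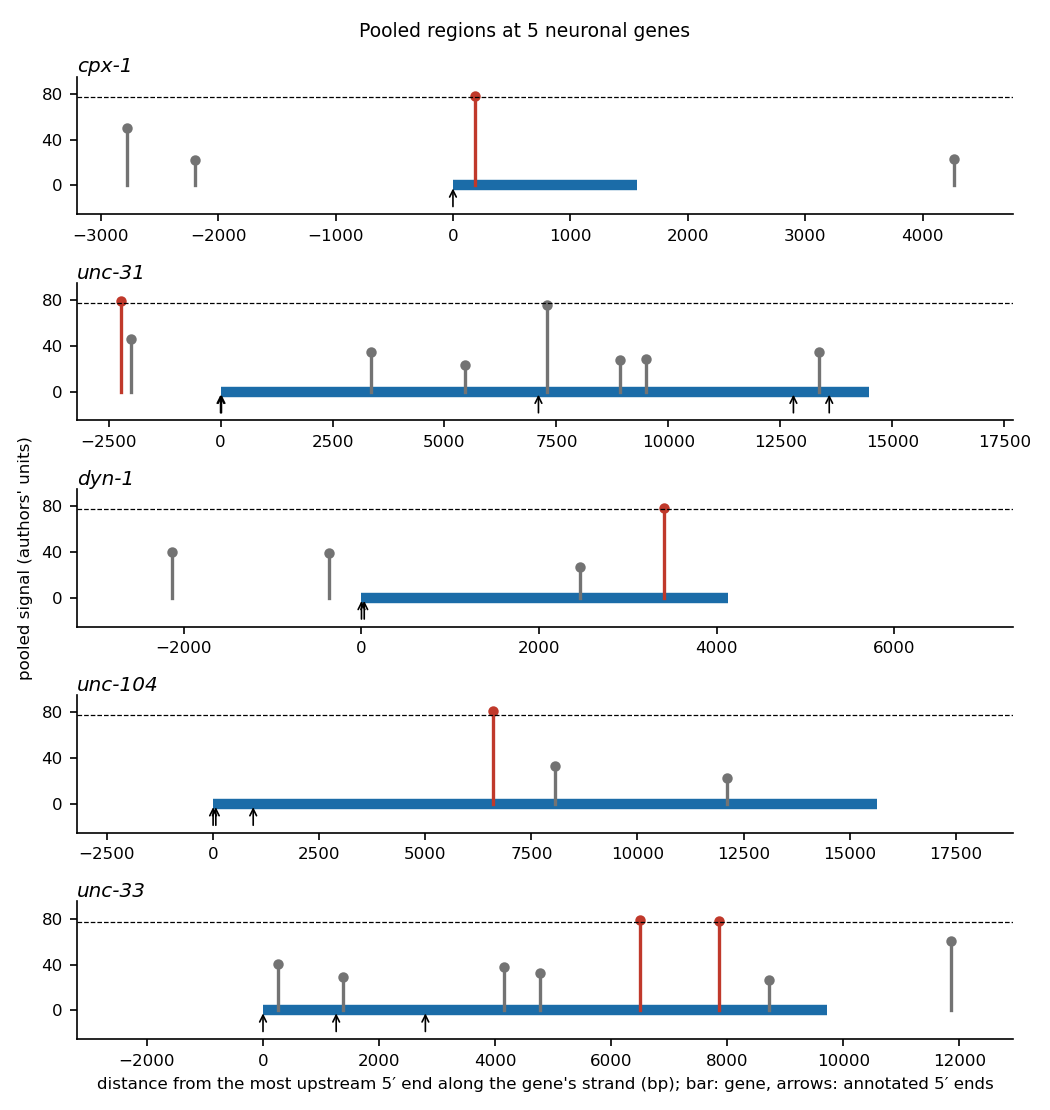
Pooled regions within 3 kb of 5 neuronal genes, drawn along each gene's strand from its most upstream 5′ end. Stems are regions with their pooled signal, red where the region is a final peak, the blue bar is the gene, arrows are annotated 5′ ends and the dashed line is the lowest final signal (77.4). At dyn-1, unc-104 and unc-33 the final peaks lie inside the gene, and at unc-31 a final peak lies 2223 bp upstream.

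Further final peaks lay outside 3 genes, at up to 8387 bp from the gene. How many of all genes have a final peak that near was not counted. The nearest of these peaks was 2223 bp upstream of unc-31, with a signal of 79.3, 41.9 in replicate 1 (rank 424) and 33.7 in replicate 2 (rank 1239). The others were 8387 bp upstream of unc-44 (signal 93.4), within 500 bp of a small RNA gene, and 5463 bp downstream of unc-76 (signal 125), 132 bp from the 5′ end of C01G10.7. Over the 38 genes the median distance from a 5′ end to the nearest final peak was 59851 bp, against 84925 bp over all genes, and the largest was 500867 bp at unc-26. Below the final threshold, the strongest region inside a gene with no region in its window was at unc-51, with a signal of 64.8 (rank 995). Of the 13 genes with no pooled region in the window, 10 had a pooled region elsewhere in the gene (76.9%), against 30.6% of all genes without one in the window. Among such genes of 5000 bp or more the counts were 9 of 10 neuronal genes and 71.9% of all genes. Over all genes, with or without a region in the window, a pooled region lay inside 31 of the 38 (81.6%), against 47.2%. These last shares were not split by gene length, and the neuronal genes are longer. Inside unc-2, of 52607 bp, there were 16 pooled regions and inside unc-44, of 29301 bp, 13.

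Other genes of the same pathways, chosen by function, fell on either side of the 38 in the share with a pooled region. Of 13 genes of neurotransmitter identity, such as synthesis enzymes and vesicular transporters, 3 had a pooled region (23.1%, against 41.2% of all genes), and 0 had a final peak there. The median percentile of these 3 was 72.8 in the pooled list. It was 55.4 over 4 genes in replicate 1 and 4.81 at 1 gene in replicate 2. Inside cat-1 of this list, the vesicular monoamine transporter gene, a final peak with a signal of 148 (rank 49) lay 2635 bp from the nearest 5′ end. Of 27 further genes of the vesicle cycle and active zone, 20 had a pooled region (74.1%), with a median percentile of 70.3 in the pooled list, 75.9 in replicate 1 and 77.6 in replicate 2. The median window of this list was 2204 bp, and that of the neurotransmitter list 1511 bp. Final peaks in the window were present at 2 of these 20 genes, against 4.02% of all genes with a region. They were at pkc-1, a protein kinase C gene of dense core vesicle release, and at nsf-1, the gene of the ATPase that takes SNARE complexes apart. At pkc-1 the signals were 95.9 in the pooled list, 60.4 in replicate 1 (rank 70) and 37.5 in replicate 2 (rank 781). At nsf-1 they were 85.3, 30.7 (rank 1993) and 50 (rank 263). Inside unc-41, the stonin gene, whose window had a pooled signal of 25.1, a final peak of rank 143 lay 1543 bp from the nearest 5′ end. A final peak lay inside 1.06% of all genes, and inside 3.53% of those of 5000 bp or more, as cat-1 and unc-41 are. Of the 20 genes with a pooled region, 3 were in the top 10%, against 10.0% of all genes with a region. The only other gene of these lists in the top 10% was dnj-14, a cysteine string protein gene, with 77.4 in the pooled list. It was rank 458, directly below the last final peak, and the 5′ end of glit-1 was nearer to its summit (176 bp) than its own (355 bp).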

How the data were processed

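Per the deposited file list, candidate regions were made from each replicate's alignment with 1 control file, another list from both alignments together, and these 3 lists gave the final one by an irreproducible discovery rate (IDR) threshold. The sources used here name no aligner, peak caller or threshold and give no read numbers, so depth is unknown. The signal of a region and its −log10 q-value are used as the authors deposited them. The control file and the lists on ce10 were not used here.

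Regions on ce11 were assigned with Python 3.11.15 and numpy 2.4.6 to protein-coding transcripts of Ensembl release 115 on WBcel235, the same assembly. Every symbol of the 38 genes matched 1 gene, and of the other lists only apm-2 matched none. Positions are 1-based. Assignment was checked on simulated regions. With 1 group, counts and medians are given beside those over all protein-coding genes, with no set test. The genes, lists and windows were chosen with earlier results of these data known. All 38 genes are named, with lowest and highest values, and of the other lists those in the top 10% or with a final peak. Motifs were searched on both strands.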

Additional observations from a re-analysis of the deposited data

How the results depend on the processing

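The count of neuronal genes with a final peak in the window was 1 with windows from 2000 bp or 500 bp upstream, with overlap in place of the summit, with the most upstream 5′ end alone and, an alternative chosen after seeing the data, with the nearest gene only. It was 0 with the upper part of the final peaks by signal, where 2.57% of all genes with a region had one. With as many top regions of a single replicate in place of the final peaks it ranged from 0 (replicate 1 alone) to 2 (replicate 2 alone, cpx-1 and unc-31), against 3.15% and 5.51% of all genes. The count with a candidate region ranged from 23 to 28 of 38 over all alternatives, while the share of all genes moved more: 27 against 54.0% with 2000 bp, 23 against 32.5% with 500 bp and 26 against 48.0% with overlap. The median percentile was 65.7 to 70.8 over the alternatives on windows, overlap, 5′ ends and nearest gene, 66.9 with replicate 1 alone and 44.6 with replicate 2 alone. The cause of that difference was not tested. The highest signal was the same value at 20 of 25 genes with either other window and with the most upstream 5′ end. The most upstream 5′ end left rab-3 and unc-31 without a region. So did the window from 500 bp upstream for snb-1 and unc-10, and the nearest gene only for egl-19. The highest signal moved most at syd-1 (40.8 with 2000 bp), unc-119 (49.7 with 2000 bp or overlap), unc-36 (24.1 with 500 bp), and unc-2 (23.6) and unc-44 (25.2) with the most upstream 5′ end. No paired analysis was possible because there is 1 group.

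With 2 replicates, unknown depth and no sample without the tagged protein used here, a missing region cannot be read as a site without binding. A signal near 77.4 lies at the edge of the final list, where small changes move a gene across it.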
